A study of Homo sapiens with 8 samples.

Results

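MH7A cells given tumour necrosis factor (TNF) and Tubuloside B (Tub B) together were compared with mock cells that received neither. The comparison used 4 of the 8 libraries of the series, 2 per group, and the libraries were chosen by their labels alone, with no measured value. MH7A is an immortalised human line made from the synovial tissue of a person with rheumatoid arthritis and serves as a model of fibroblast-like synoviocytes, the connective-tissue cells that line the joint. The doubly treated cells received TNF at 20 ng/mL, a dose taken from the series' design text because the sample labels give other units or stop short of one, and 60 µM Tub B, for 24 h. Mock cells are labelled DMSO, but the design text speaks of normal culture, and it is not stated whether treated cells also received solvent. The TNF alone and Tub B alone libraries, 2 each, are used only as reference values. All results come from 1 cell line. It is not stated that the paired libraries of a group are independent cultures. The p-values therefore reflect library-to-library spread alone, and that spread may be technical.

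TNF binds its receptors on synovial fibroblasts and acts through the kinase TAK1 and the IKK complex on NF-κB, a transcription factor that switches on chemokines, cytokines and its own inhibitors. A later wave follows through secreted interferon, its receptor and the kinases JAK1 and TYK2, and switches on antiviral genes. In the rheumatoid joint these cells also release matrix-degrading proteases. Tub B is a phenylethanoid glycoside found in Cistanche plants, and the series concerns its action on TAK1 phosphorylation, which RNA counts do not measure.

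The mock libraries held 28035754 and 18041883 counts and the doubly treated ones 16861895 and 14073186, and 16647 of 38173 gene symbols had enough counts to be tested. A count of 3, the limit that a count of 0 allows, was worth 0.107 and 0.169 CPM (counts scaled by library size) in mock and 0.173 and 0.208 CPM in the doubly treated libraries. The chi-square of the counts per degree of freedom was 5.31 between the 2 mock libraries, against 2.29 to 2.68 within the other 3 groups. The summed level of 13 fibroblast markers, dominated by type I collagen, was 25500 to 30100 CPM in mock and 20700 to 21100 CPM after both treatments. Single markers went both ways: COL1A1, COL1A2, COL3A1, PDGFRB, THY1 and CDH11 were called lower, and DCN, LUM, FAP and PDPN higher. COL6A1, PDGFRA and VIM were not called. All 7 lymphocyte markers and 7 of 9 macrophage markers stayed under 1 CPM in every library, as did 3 of 4 markers of the synovial lining, among them PRG4 (lubricin), the defining product of lining cells. In bulk RNA, fewer cells of a type and less RNA per cell cannot be told apart.

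Doubly treated cells still stood well away from unstimulated cells. Of the 16647 genes tested, 4813 (28.9%) differed between TNF + Tub B and mock at an adjusted p below 0.05 (edgeR's quasi-likelihood test, Benjamini-Hochberg adjustment over all genes), 2502 higher (15.0%) and 2311 lower (13.9%). The split depended on scaling and filter: with library totals in place of TMM factors, 3086 were higher and 1842 lower, whereas upper-quartile scaling gave 2277 higher and 2564 lower. With no filter on low counts 2164 were higher and 2524 lower. Most differences were small, the median absolute log2 fold change over all tested genes being 0.20. A change of at least 2-fold was reached by 452 genes that rose (2.72%) and 374 that fell (2.25%). The same test called 5077 genes (30.5%) for TNF against mock and 2120 (12.7%) for Tub B against mock, and 3367 (20.2%) for TNF + Tub B against TNF. By direction the shares were 17.2% higher and 13.3% lower for TNF, and 4.83% higher and 7.91% lower for Tub B. With 15.0% and 13.9% for the main comparison, they are the background for the list counts below. These reference comparisons share the mock or the doubly treated libraries with the main one, so their values are only set side by side.

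The distance between libraries depended on the measure. Over the 500 genes that differed most in each pair, the root mean square log2 difference was 2.14 to 2.31 between mock and doubly treated libraries, 2.61 to 2.77 between mock and TNF libraries, and 1.28 to 1.53 between mock and Tub B libraries. Pairs within a group lay 1.1 to 1.35 apart, so the doubly treated libraries were farther from mock than any replicate pair. By the median absolute log2 difference over all tested genes, mock lay 0.203 to 0.23 from the doubly treated libraries and 0.195 to 0.222 from the TNF libraries, ranges that overlap. At least 2-fold below mock were 238 genes (1.43%) for TNF alone, fewer than the 374 after both treatments, and at least 2-fold above mock were 694 (4.17%), more than the 452. On the first principal component, which held 55.8% of the variance, the doubly treated libraries scored 19.9 and 22.67, between mock at −27.25 and −29.15 and TNF at 42.88 and 45.92. On the second, which held 17.9%, they scored 27.78 and 26.7, above the other 6 libraries, the next highest being Tub B at 11.09.

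**Figure D1:**
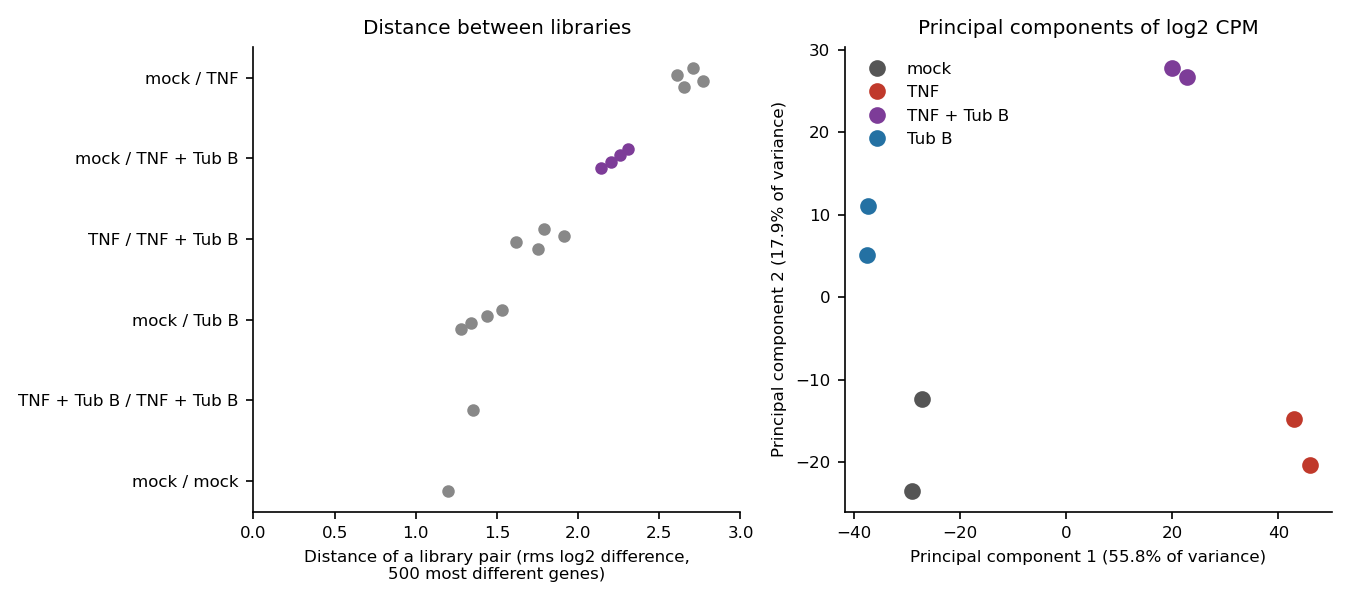
Left, root mean square log2 difference over the 500 most different genes for each pair of libraries, by pair of groups. Right, the first 2 principal components of log2 CPM with 1 point per library: the doubly treated libraries lie between mock and TNF on the first component and above all others on the second.

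A gene was counted as back at the mock level only when the whole 95% interval of its fold change lay within 1.5-fold of mock in either direction, because a missed test does not show that a level is restored. By that bound 9459 genes (56.8%) were at the mock level. Of these, 2371 were also called, with differences too small to leave the bound, and 7088 were not. A further 4746 genes (28.5%) were neither called nor within the bound. These undecided genes had a median level of 0.984 CPM, against 35.7 CPM for genes within the bound. The same bound held 58.7% of genes for TNF against mock and 65.4% for Tub B against mock, so a share near 57% in a gene list is no more than the background. Most mock-level genes named below were picked because TNF alone moved them far from mock. That contrast with TNF is set by the choice and is not typical of genes within the bound.

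**Figure D2:**
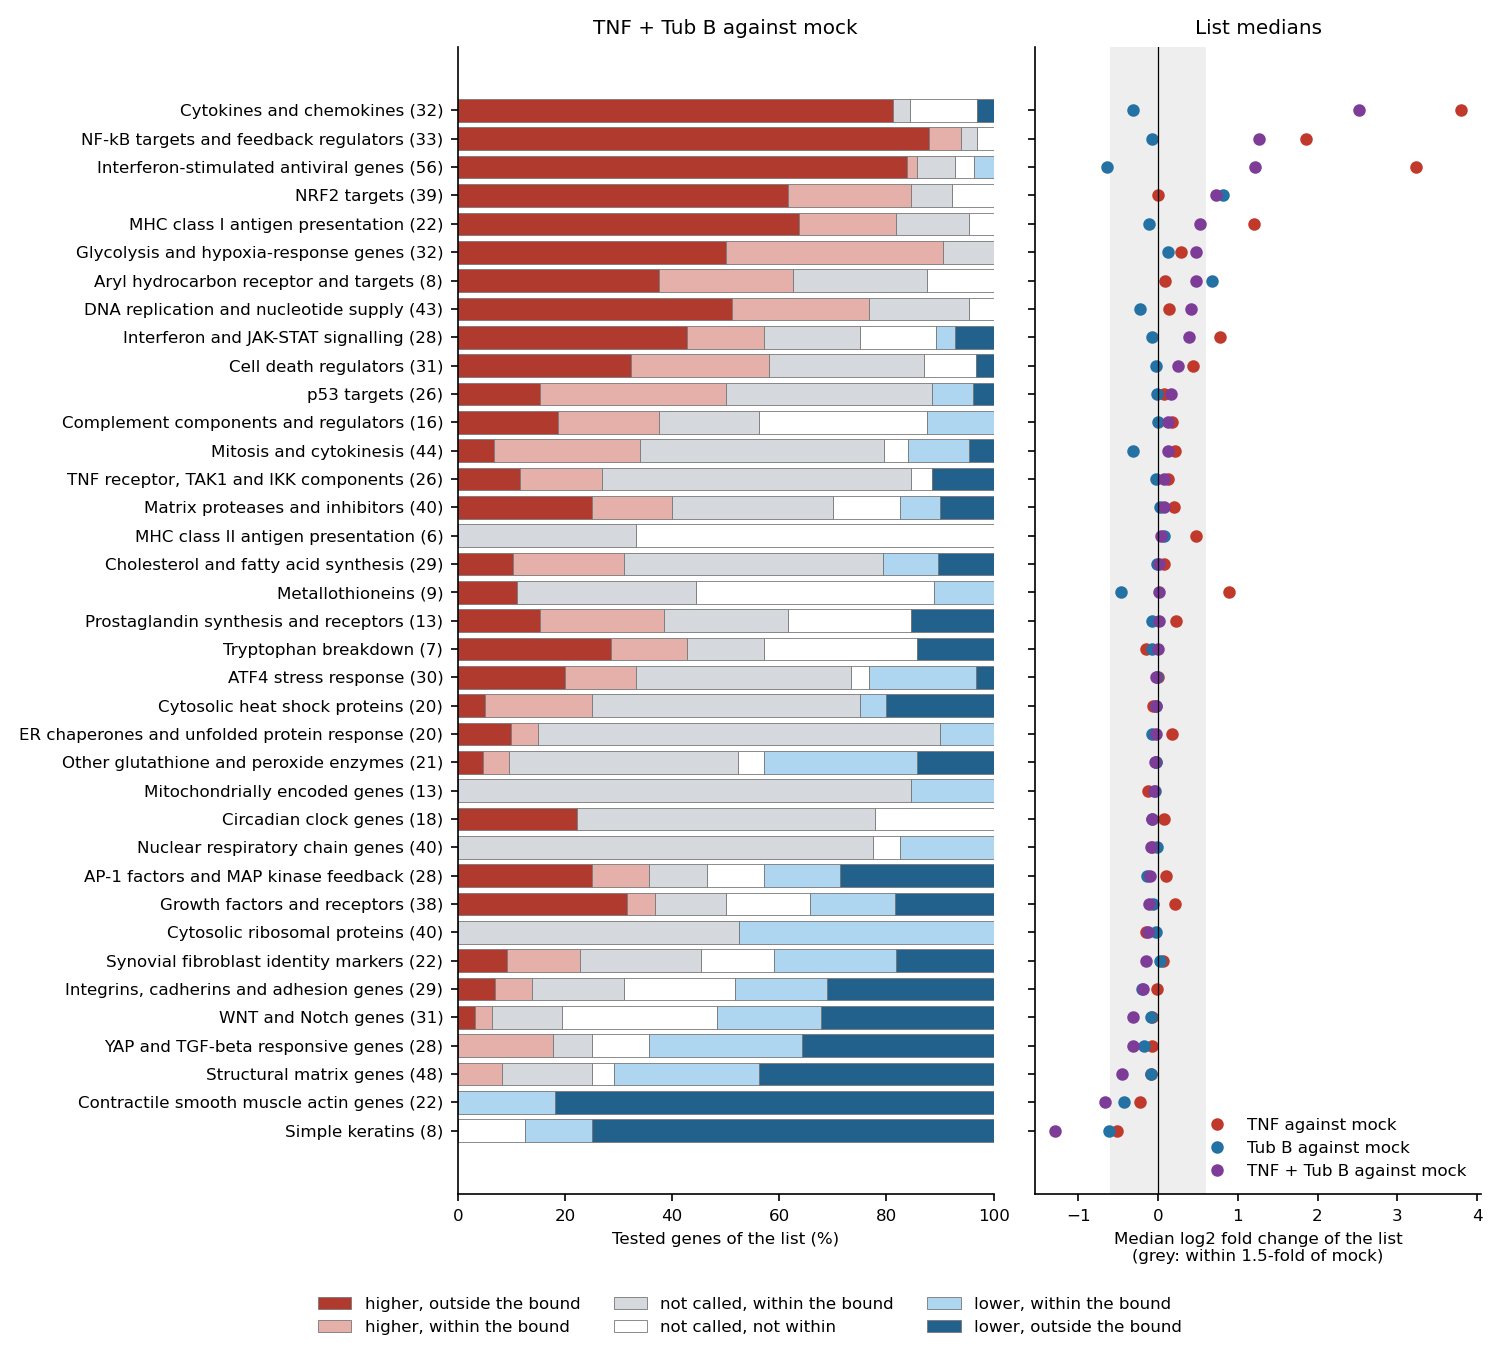
For each gene list, the percentage of tested members that were called higher, called lower, within 1.5-fold of mock or undecided for TNF + Tub B against mock (stacked bars), with the list's median log2 fold change for TNF + Tub B, TNF and Tub B against mock (points). Cytokines, NF-κB targets and interferon-stimulated genes lie mostly above mock, while contractile, matrix and keratin genes lie mostly below it.

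The inflammatory secretory programme remained far above mock. Of 38 cytokines and chemokines listed, 32 passed the filter on low counts. Of those, 26 rose, 1 fell, 1 was at the mock level and 4 were undecided, with a median log2 fold change of 2.52 against 0.01 over all tested genes. For TNF alone 30 of the 32 were called higher (17.2% of all genes) with a median of 3.80, and for Tub B alone 7 were lower (7.91% of all genes). Members passed the filter partly through their level after TNF, so these counts describe the members and support nothing further.

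CXCL8 encodes interleukin-8, the main attractant of neutrophils. Its level was 17.2 and 13.9 CPM in mock, 986 and 835 CPM after TNF + Tub B, 758 and 739 CPM after TNF and 13.3 and 14.5 CPM after Tub B. The doubly treated libraries were the highest of the series and did not overlap mock, with a log2 fold change of 5.85 ± 0.09 (SE; edgeR adjusted p = 3.16e-18). CCL2, which attracts monocytes, rose from 20.9 and 23.6 CPM to 235 and 261 CPM, where TNF alone gave 502 and 525 CPM. Its log2 fold change over mock was 3.49 ± 0.07 (edgeR adjusted p = 7.23e-17). IL6, the cytokine of the acute-phase response, stood at 1.21 and 1.64 CPM in mock, 13.4 and 14.8 CPM after both treatments and 28.1 and 32.8 CPM after TNF. Both genes thus lay between the mock and TNF libraries without overlap, whereas CXCL8 lay above both.

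IL1B, the gene of interleukin-1β, rose from 3.66 and 4.62 CPM to 93.8 and 86.1 CPM, a log2 fold change of 4.48 ± 0.12. Several chemokine genes were almost absent from mock. CXCL10, an interferon-inducible attractant of T cells, had 3 and 1 counts there, against 311 and 397 counts after both treatments and 4843 and 3578 after TNF. CSF2, the gene of the growth factor GM-CSF, had 5 and 4 counts in mock and 143 and 111 after both treatments, a ratio of 40.8 after scaling for library size, with a counting interval of 21.2 to 90.3. CCL20 had only 0 and 1 counts in mock against 8 and 8, and its call was lost without mock replicate 1 (edgeR adjusted p = 0.061). The single listed chemokine that fell was CXCL12, a constitutive fibroblast chemokine (log2 fold change −0.79), and IL11 was at the mock level (0.04).

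Targets and feedback regulators of NF-κB mostly stood above mock, though below TNF alone. Of 33 tested members of 34 listed, 31 rose, 3 lay within 1.5-fold of mock (RELA and TNIP2, both also called higher, and SDC4) and 1 was undecided, with a median of 1.27. At least 2-fold was reached by 21 of the 33, against 27 for TNF alone. Set against TNF alone, 24 of the 33 were called lower (13.1% of all genes) and 1 higher, with a median of −0.32. BIRC3, an inhibitor of apoptosis that sits in the TNF receptor complex, rose from 2.17 and 3.27 CPM to 141 and 138 CPM (log2 fold change 5.74 ± 0.15), with 262 and 268 CPM after TNF. SOD2, the mitochondrial superoxide dismutase, stood at 105 and 110 CPM in mock, 2306 and 2352 CPM after both treatments and 2340 and 2339 CPM after TNF. The doubly treated and TNF libraries overlapped for SOD2, and the rise over mock was 4.44 ± 0.04 on the log2 scale. ICAM1, the adhesion molecule that holds leukocytes, rose from 11.4 and 14.9 to 144 and 142 CPM, a change of 3.47 ± 0.09. The negative regulators rose with the targets: TNFAIP3, which encodes the deubiquitinase A20, by 3.57 ± 0.05 and NFKBIA, which encodes IκBα, by 2.52 ± 0.07. VCAM1 had too few counts to be tested.

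The promoter of CXCL10 is shown because this gene had the largest change of the listed cytokines and its window holds the NF-κB consensus. The sequence is the 250 bases before the RefSeq start site on GRCh38.p14, chr4:76023498-76023747, minus strand, 5′ to 3′, and the capitals mark the matches.
CXCL10: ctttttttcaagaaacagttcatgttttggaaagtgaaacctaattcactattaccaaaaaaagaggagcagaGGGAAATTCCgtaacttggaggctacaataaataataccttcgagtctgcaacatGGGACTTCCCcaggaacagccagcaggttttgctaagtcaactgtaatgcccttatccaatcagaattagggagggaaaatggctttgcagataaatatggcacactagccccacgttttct
The 2 matches begin 177 and 122 bases before the start. On either strand the consensus was found in 5.21% of 35116 such windows in the RefSeq table and in 11 of the 28 NF-κB list members that had a window (39.3%, 28 of 33 members matched). Early in the CXCL10 window a stretch left in lower case also fits, on the opposite strand, the interferon-stimulated response element described below. A match is a description of the letters and was not tested as a binding site.

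Interferon-stimulated genes were lower than after TNF, yet most had not returned to mock. All 56 listed genes were tested: 48 rose, 2 fell, 7 lay within 1.5-fold of mock (3 of them called) and 2 were undecided, with a median of 1.22. For TNF against mock all 56 were higher, with a median of 3.23, and for Tub B against mock 25 were lower, with a median of −0.64. At least 2-fold above mock were 33 of 56 after both treatments and 54 of 56 after TNF. The libraries within a group differed in this programme: the median log2 CPM of the list was 3.97 and 4.33 in mock and 5.04 and 5.43 after both treatments. The count within the bound was 4 without doubly treated replicate 1 and 12 without doubly treated replicate 2, and the list median ranged from 0.94 to 1.43 over the fits that left out 1 library.

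MX1, a GTPase that blocks viral replication, stood at 14.4 and 28.8 CPM in mock and 72.7 and 134 CPM after both treatments. TNF alone gave 690 and 882 CPM, and Tub B alone 5.18 and 4.10 CPM. The 4 groups did not overlap, and the rise over mock was 2.32 ± 0.25 on the log2 scale (edgeR adjusted p = 1.08e-06), although the 2 libraries of mock and of the double treatment each stood far apart. IFI44L, an antiviral gene of the interferon response, rose from 2.99 and 5.24 CPM to 15.4 and 35.7 CPM, where TNF gave 188 and 244 CPM. ISG15, a ubiquitin-like modifier, reached 79.1 and 106 CPM from 48.4 and 71.3 CPM, and its call was lost without doubly treated replicate 2 (edgeR adjusted p = 0.0775) and in DESeq2 (0.0833).

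The guanylate-binding proteins GBP1 and GBP2, interferon-induced GTPases of cell-autonomous defence, were 2 of the 4 members within the bound and not called, with TRIM22 and LGALS3BP. The other listed guanylate-binding genes were called higher, GBP3 (0.38) within the bound and GBP4 (1.29) and GBP5 (2.97) outside it. GBP2 measured 9.49 and 10.8 CPM in mock, 12.02 and 10.4 CPM after both treatments and 29.1 and 34.1 CPM after TNF. The mock and doubly treated libraries overlapped, and GBP2 stayed within the bound whichever of the 4 libraries was left out. GBP1 measured 27.2 and 36.0 CPM in mock and 28.3 and 42.0 CPM after both treatments, against 173 and 211 CPM after TNF. It left the bound without mock replicate 2 (log2 fold change 0.35) and without doubly treated replicate 1 (0.43). TRIM22 left it without doubly treated replicate 1 (0.36), and its log2 fold change was 0.34 without mock replicate 2. It was also called higher with no filter on low counts (edgeR adjusted p = 0.0161) and with the replicate number as a block (0.025). The 2 called lower were the membrane proteins IFITM2 (−0.27) and IFITM3 (−0.23), and only 1 gene of the list was called lower without mock replicate 2 or without doubly treated replicate 1.

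The promoter of IFI44L is shown because it had the largest change among called members of the list with an interferon-stimulated response element (ISRE) in the window. It lies at chr1:78620198-78620447 of GRCh38.p14 on the plus strand, 250 bases before the RefSeq start site. Capitals mark the element, searched on either strand as TTTC, any 2 bases and TTTC again.
IFI44L: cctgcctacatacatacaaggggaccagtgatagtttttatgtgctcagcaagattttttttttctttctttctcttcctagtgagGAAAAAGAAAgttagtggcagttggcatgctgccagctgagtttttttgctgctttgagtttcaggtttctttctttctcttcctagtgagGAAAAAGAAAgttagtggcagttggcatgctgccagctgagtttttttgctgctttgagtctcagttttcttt
The 2 copies, both on the opposite strand, begin 164 and 73 bases before the start. The element was found in 3.02% of all 35116 windows. Only 42 of the 56 listed genes matched a window, under the 80% needed, so no share is given for the list. Among antigen presentation genes, 7 of the 18 with a window held the element (38.9%, 18 of 22 matched).

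**Figure D3:**
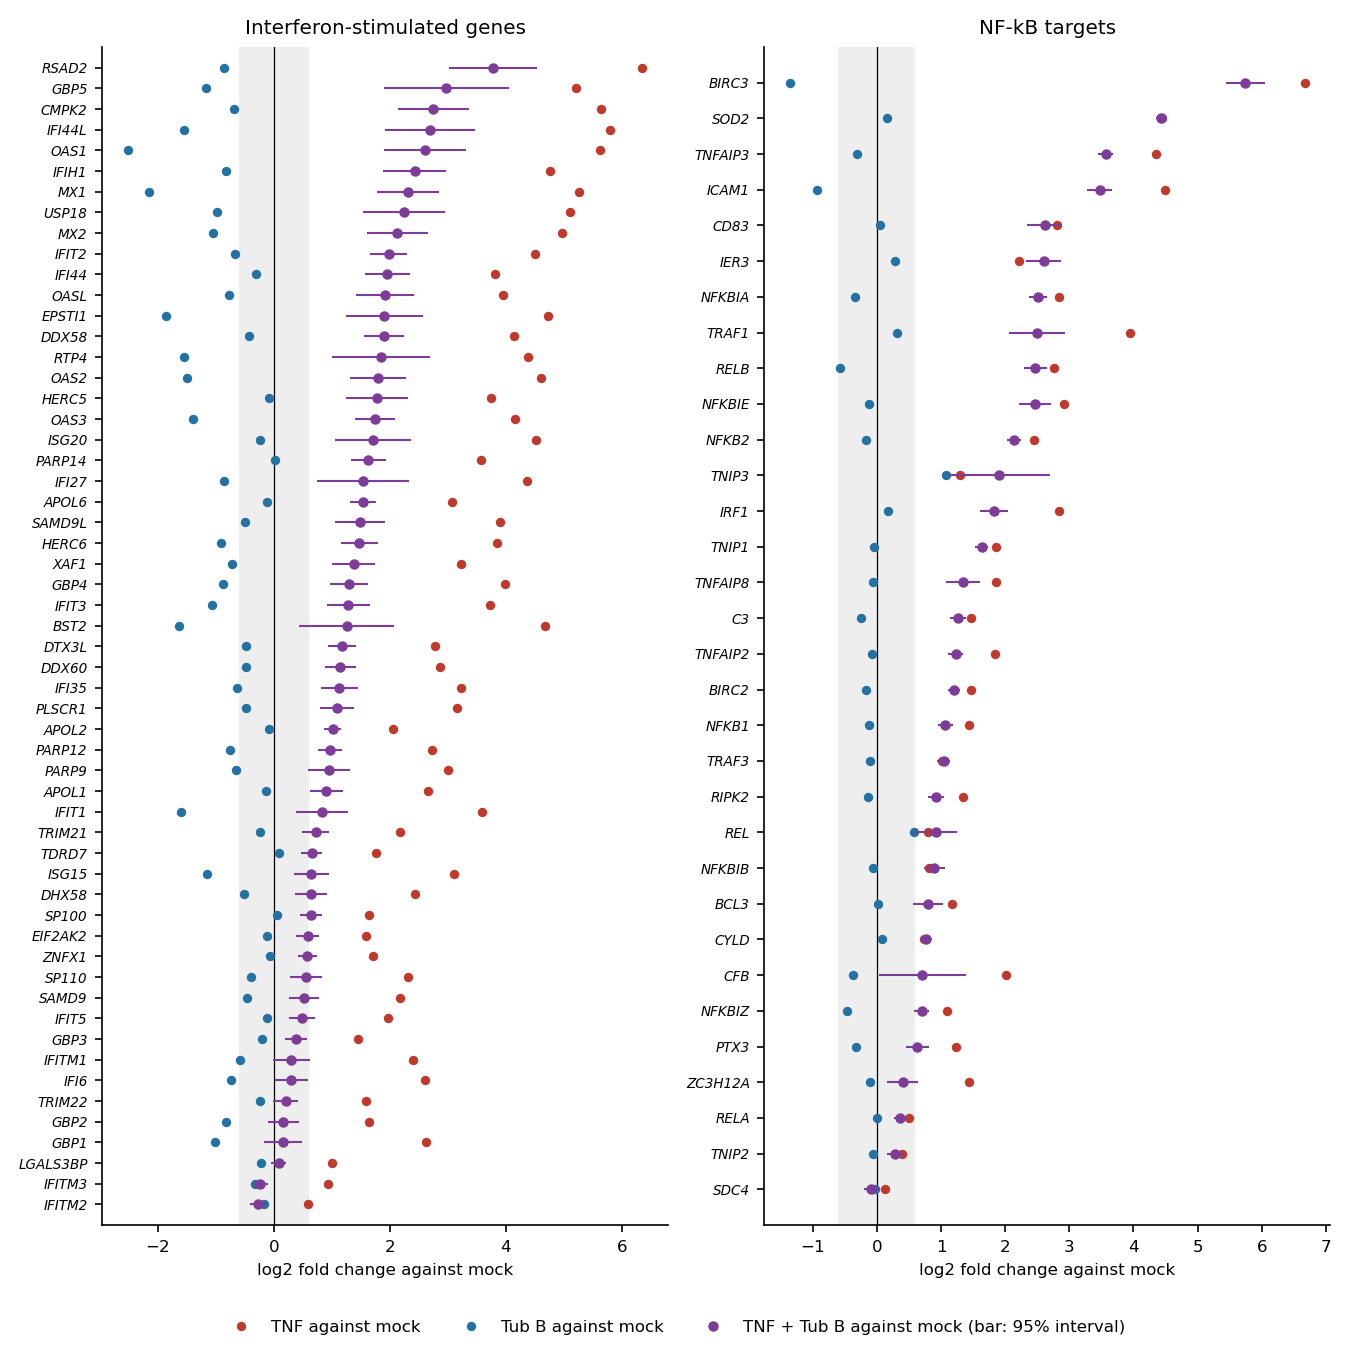
Log2 fold change against mock of tested interferon-stimulated genes and NF-κB genes (BCL2A1 is left out for want of a finite value), with 95% intervals for TNF + Tub B, dots for TNF and Tub B alone, and a grey band for 1.5-fold either way. Most intervals for TNF + Tub B lie above the band, GBP2 and GBP1 lie inside it, and CD83, ICAM1 and BIRC3 lie far above it.

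Antigen presentation through MHC class I stood modestly above mock. Of 22 genes, 18 rose (15.0% of all genes), 7 lay within the bound, 4 of them called, and 1 was undecided. The median was 0.52 against 1.2 for TNF alone, and 4 reached 2-fold against 14 for TNF alone. TAP1, a subunit of the peptide transporter, rose from 60.7 and 66.0 CPM to 131 and 159 CPM (2.29-fold), with 384 and 434 CPM after TNF. The immunoproteasome subunit PSMB9 rose by 1.51 ± 0.16. NLRC5, the transactivator of class I genes, was within the bound at 68.2 and 67.2 CPM in mock and 72.2 and 79.5 CPM after both treatments, although it was called higher without doubly treated replicate 1 (edgeR adjusted p = 0.0474). B2M, the light chain of class I molecules, was called higher and within the bound (0.47), and it left the bound without mock replicate 2 (0.50) and without doubly treated replicate 1 (0.51). Of 12 class II genes only 6 could be tested, of which 2 were at the mock level and 4 undecided. Only 1 was at the mock level without mock replicate 1 or either doubly treated library.

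The interferon receptor and signalling list was mixed. Of 28 tested genes of 30, 16 rose (15.0% of all genes), 3 fell (13.9%) and 4 were undecided, with a median of 0.39. Within the bound lay 10 (56.8% of all genes), 5 of them called. IRF1, an early transcription factor of the response, rose from 9.77 and 8.29 CPM to 30.0 and 35.3 CPM, with 64.2 and 66.9 CPM after TNF. JAK2, a cytokine receptor kinase, was at the mock level, with 14.0 and 14.4 CPM in mock, 14.8 and 14.9 CPM after both treatments and 21.6 and 26.6 CPM after TNF. The doubly treated libraries lay just above mock without overlap. TMEM173, which encodes the DNA sensor adaptor STING, fell below mock: 56.0 and 56.4 CPM against 44.9 and 45.0 CPM, while TNF alone gave 111 and 114 CPM. Its log2 fold change of −0.32 ± 0.06 was called (edgeR adjusted p = 0.000187) and yet within the bound.

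The transcripts of the pathway between the TNF receptors and IKK were mostly at the mock level. Of 26 genes, 19 lay within the bound, 4 of them called, while 7 rose, 3 fell and 1 was undecided, with a median of 0.08. For TNF alone 17 of the 26 were already within the bound. MAP3K7, which encodes TAK1 itself, measured 58.4 and 64.9 CPM in mock and 62.6 and 56.5 CPM after both treatments. The groups overlapped, and the log2 fold change of −0.04 ± 0.07 (edgeR adjusted p = 0.69) was within the bound in every fit that left out 1 library. The TAK1-binding protein TAB2 was called higher within the bound, at 79.4 and 80.5 against 99.6 and 99.7 CPM. RBCK1, a subunit of the linear ubiquitin ligase, was at the mock level, at 103 and 107 against 109 and 113 CPM, with 174 and 193 CPM after TNF. The members that left the bound downwards were MAP2K6 (−1.27), MAP2K3 (−0.58) and TRAF5 (−0.40). Only 1 member was called lower without doubly treated replicate 1. The call of MAP2K6 was lost without mock replicate 1 (edgeR adjusted p = 0.274), without either doubly treated library (0.106 and 0.114) and in DESeq2 (0.106).

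Chaperones of the endoplasmic reticulum were also at the mock level, as most were after TNF alone. Of 20 genes of the unfolded protein response, 18 lay within the bound, 3 of them called. In the whole list 3 rose and 2 fell, with a median of −0.03. Without mock replicate 1 or doubly treated replicate 2 only 1 fell. For TNF against mock 14 of the 20 were called higher, with a median of 0.18, and 17 of the 20 were within the bound. HYOU1, a chaperone of secreted proteins, measured 169 and 179 CPM in mock and 165 and 168 CPM after both treatments, with 212 and 223 CPM after TNF. XBP1, a transcription factor of the response, measured 88.1 and 98.5 CPM in mock and 93.2 and 102 CPM after both treatments, with overlapping groups. The exception was ERN1, which encodes the stress sensor IRE1 and rose by 1.40.

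The list of metallothioneins, small zinc-binding proteins, also holds the zinc exporter SLC30A1. Its median was 0.01 over 9 tested genes of 12 listed, against 0.89 for TNF alone, but only 4 lay within the bound and 4 were undecided. Those within it were MT1E, MT1L, MT1M and SLC30A1. SLC30A1 was called lower (−0.22), a call lost without mock replicate 2 and without doubly treated replicate 1. MT1E was at the mock level, with 50.5 and 43.3 CPM in mock, 47.2 and 47.2 CPM after both treatments, 97.2 and 89.0 CPM after TNF and 28.5 and 27.3 CPM after Tub B. The doubly treated libraries lay between the 2 mock libraries, and MT1E stayed within the bound in every fit that left out 1 library. MT2A rose from 992 and 827 CPM to 1451 and 1307 CPM. MT1M, counted within the bound, left it in all 4 such fits. The list median ranged from −0.13 to 0.30 over those fits.

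Single genes of other programmes were also at the mock level. IGFBP3, a secreted binder of insulin-like growth factors, measured 1281 and 1453 CPM in mock, 1317 and 1225 CPM after both treatments and 2308 and 2466 CPM after TNF. It was within the bound in every fit that left out 1 library, although it was called lower without mock replicate 1 (edgeR adjusted p = 0.0187). STARD4, a cholesterol carrier, measured 32.6 and 38.0 CPM in mock and 33.7 and 37.2 CPM after both treatments, with 52.99 and 58.9 CPM after TNF. In the other direction TNFRSF10D, a decoy receptor for the death ligand TRAIL, fell with TNF alone to 47.6 and 38.7 CPM but measured 118 and 118 CPM after both treatments, against 145 and 122 CPM in mock. It was within the bound, and it was called lower without mock replicate 2 (edgeR adjusted p = 0.00242). Of the 125 genes named by the rule that lay within the bound, 91 stayed there in all 4 fits that left out 1 library.

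Antioxidant genes controlled by NRF2, the factor that answers electrophile stress, stood above mock after both treatments. Of 39 tested genes of 40 listed, 33 rose (15.0% of all genes) and 3 were undecided, with a median of 0.73, and 14 reached 2-fold. Within the bound lay 12, 9 of them called higher. For Tub B alone 34 were called higher (4.83% of all genes) with a median of 0.82. For TNF alone 8 were higher (17.2% of all genes) and 6 lower (13.3%), with a median of 0.00. NQO1, a quinone reductase, measured 88.9 and 93.4 CPM in mock, 336 and 320 CPM after both treatments, 89.7 and 94.9 CPM after TNF and 437 and 483 CPM after Tub B. It rose by 1.85 ± 0.06 over mock, while the TNF libraries overlapped mock. SLC7A11, the cystine transporter that feeds glutathione synthesis, rose from 9.35 and 9.30 CPM to 72.0 and 64.0 CPM, with 7.67 and 6.81 CPM after TNF. AKR1C1, an aldo-keto reductase, had the largest rise of the list at 3.51 ± 0.18. It has near-identical neighbours, so its reads may be split among them and its value is uncertain.

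SQSTM1, which encodes the autophagy receptor p62, measured 262 and 262 CPM in mock, 1213 and 1199 CPM after both, 665 and 704 CPM after TNF and 477 and 521 CPM after Tub B, without overlap of any groups. It was higher than after TNF (edgeR adjusted p = 8.61e-10). HMOX1, haem oxygenase 1, rose from 53.5 and 59.3 CPM to 243 and 214 CPM, with 81.3 and 87.0 CPM after TNF and 203 and 211 CPM after Tub B. For HMOX1 the doubly treated and Tub B libraries lay close together. The difference between TNF + Tub B and Tub B alone was not tested, nor was an interaction of the 2 treatments.

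TXNRD1, thioredoxin reductase, rose from 438 and 456 CPM to 1368 and 1211 CPM, a change of 1.53 ± 0.05, with 488 and 497 CPM after TNF. Its promoter is shown because it had the largest change among called NRF2 list members with an antioxidant response element, TGACNNNGC on either strand, in the window. It lies at chr12:104215529-104215778 of GRCh38.p14 on the plus strand, the 250 bases before the RefSeq start site, and the capitals mark the element.
TXNRD1: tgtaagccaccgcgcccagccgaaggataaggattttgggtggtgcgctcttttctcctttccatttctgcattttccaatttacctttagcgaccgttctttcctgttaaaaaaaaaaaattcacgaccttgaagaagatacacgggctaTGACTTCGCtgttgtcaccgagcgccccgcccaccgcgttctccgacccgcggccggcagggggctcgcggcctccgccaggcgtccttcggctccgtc
The single copy begins 99 bases before the start. The element was found in 10.9% of all 35116 windows, and only 29 of the 39 tested list members matched a window, so no share is given for the list.

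The aryl hydrocarbon receptor list, genes of a sensor for planar aromatic compounds, had 5 of 8 tested members higher, with a median of 0.47. The 5 were CYP1B1, TIPARP, AHR, ARNT and NQO1, and NQO1 is also counted in the NRF2 list. CYP1B1, a classical target, rose from 1.03 and 1.30 CPM to 11.9 and 13.5 CPM, with 2.38 and 2.98 CPM after TNF and 11.3 and 12.5 CPM after Tub B. TIPARP, another target, rose from 68.7 and 70.4 CPM to 128 and 132 CPM. CYP1A1, a further target, was not called, with 2 and 5 counts in mock and 4 and 4 after both treatments. Tub B alone gave 11 and 15 counts of CYP1A1. AHRR, the feedback repressor, was within the bound. AHR and ARNT were called higher within the bound (0.199 and 0.225), and the call of AHR was lost in DESeq2 (adjusted p = 0.112). Fewer members were called higher without doubly treated replicate 2. The list median was 0.20 without mock replicate 1, 0.58 without mock replicate 2, 0.19 with no filter and 0.22 with only the 4 libraries. In tryptophan breakdown KYNU, which encodes kynureninase, had 17 and 4 counts in mock and 246 and 197 after both treatments. These were 0.60 and 0.23 against 14.2 and 13.7 CPM. The doubly treated level of KYNU exceeded that of TNF alone, 3.54 and 4.36 CPM (edgeR adjusted p = 1.19e-07). IDO1, which opens the pathway, had 3 counts in the 2 mock libraries together and 95 in the 2 doubly treated ones, a scaled ratio of 45.8 with a counting interval of 15.2 to 226.

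Glycolysis and hypoxia-responsive genes were moderately higher. Of 32 tested genes of 34, 29 rose (15.0% of all genes), with a median of 0.47. Within the bound lay 16 (56.8% of all genes), 13 of them called higher. For TNF 25 were higher (17.2% of all genes) and 2 lower (13.3%), and for Tub B 10 higher (4.83%) and 1 lower (7.91%). ENO2, an enolase isoform, measured 22.0 and 19.2 CPM in mock, 73.5 and 72.4 CPM after both treatments, 42.1 and 44.4 CPM after TNF and 26.1 and 28.98 CPM after Tub B. It was highest in the doubly treated libraries, with a rise over mock of 1.81 ± 0.08. PDK1, a kinase that shuts pyruvate out of mitochondria, rose by 1.07 ± 0.10.

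Matrix proteases and their regulators moved in both directions. Of 40 tested genes of 42, 16 rose (15.0% of all genes), 7 fell (13.9%) and 5 were undecided, with a median of 0.07. Within the bound lay 21 (56.8% of all genes), 9 of them called. MMP3, stromelysin 1, measured 3271 and 3364 CPM in mock, 7419 and 7584 CPM after both treatments and 5982 and 6393 CPM after TNF. MMP1, interstitial collagenase, rose from 303 and 224 CPM to 925 and 824 CPM, where TNF gave 657 and 647 CPM. Both proteases were thus higher in the doubly treated libraries than in mock and TNF libraries, with no overlap, and rose over mock by 1.18 ± 0.04 and 1.73 ± 0.09 on the log2 scale. Against TNF the edgeR adjusted p was 8.41e-05 for MMP3 and 0.00172 for MMP1. SERPINB2, an inhibitor of plasminogen activators, rose by 3.02 ± 0.06, and PLAU, the urokinase it inhibits, by 1.79 ± 0.06. TIMP3, an inhibitor of metalloproteases, fell by 1.32.

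Below mock stood the contractile and matrix-building programmes. All 22 contractile and actin-stress-fibre genes fell, 4 of them within the bound, with a median of −0.67. For TNF alone 12 were lower and 1 higher with a median of −0.22, and for Tub B alone 20 were lower with a median of −0.43. CNN1, the smooth muscle protein calponin, measured 49.97 and 57.7 CPM in mock, 19.0 and 17.8 CPM after both treatments, 34.2 and 34.8 CPM after TNF and 32.9 and 26.9 CPM after Tub B. The doubly treated libraries were the lowest and overlapped no other group, with a change of −1.54 ± 0.10 (edgeR adjusted p = 1.05e-09). LMOD1, an actin nucleator of smooth muscle, fell from 45.6 and 63.4 CPM to 7.75 and 9.70 CPM. The summed level of 5 smooth muscle or pericyte markers was 440 to 467 CPM in mock and 382 to 394 CPM after both treatments. Most of that sum was CSPG4, with 407 and 424 CPM in mock and 361 and 370 CPM after both treatments. The part of such cells in these values was not tested.

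Extracellular matrix genes fell more often than they rose. Of 48 genes, 34 fell (13.9% of all genes), 4 rose (15.0%) and 2 were undecided. Within the bound lay 25 (56.8% of all genes), 17 of them called. The median was −0.45 against −0.09 for both TNF alone and Tub B alone. COL1A1, the main chain of type I collagen, measured 6962 and 8812 CPM in mock, 4888 and 4994 CPM after both treatments, 7006 and 7429 CPM after TNF and 8038 and 7251 CPM after Tub B. It fell to 0.627 of the mock level, and it was also lower than after TNF (edgeR adjusted p = 3.3e-05). Neither single treatment was called against mock, and both overlapped it. ELN, elastin, fell from 487 and 644 CPM to 168 and 199 CPM, whereas TNF gave 597 and 665 CPM and Tub B 327 and 272 CPM. COL11A1, a minor fibrillar collagen, fell from 14.3 and 24.0 CPM to 1.68 and 1.59 CPM, the largest fall among the genes named by size, −3.51 ± 0.36. TNC, tenascin C, is a glycoprotein of inflamed matrix that measured 719 and 725 CPM in mock, 628 and 668 CPM after both treatments and 1068 and 1083 CPM after TNF. It was within the bound throughout, and its call as lower was lost without doubly treated replicate 1 (edgeR adjusted p = 0.156) and with library totals as the scaling (0.0636).

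**Figure D4:**
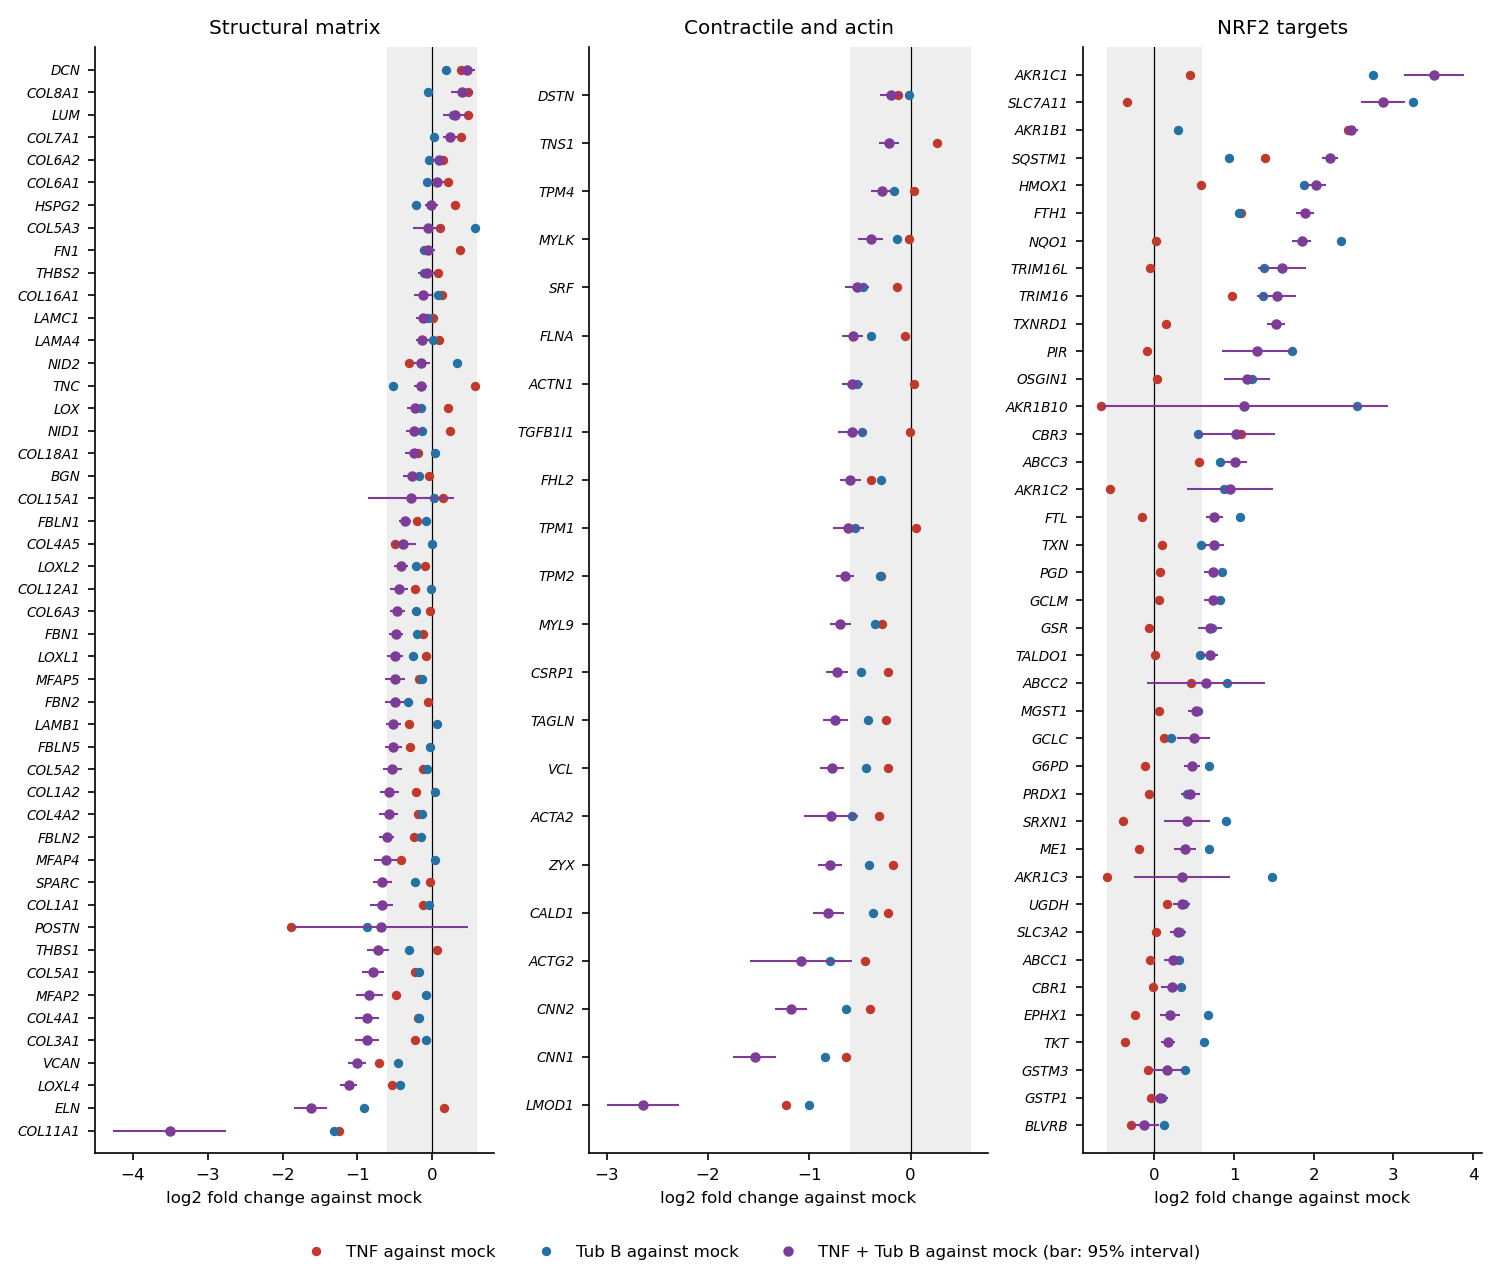
Log2 fold change against mock of matrix, contractile and NRF2 genes, with 95% intervals for TNF + Tub B, dots for TNF and Tub B alone, and a grey band for 1.5-fold either way. Every contractile gene has its TNF + Tub B value below 0, and among NRF2 genes SLC7A11 and NQO1 lie near their Tub B dots.

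Targets of YAP and TGF-β, which tie gene activity to tension and growth factor in fibroblasts, followed the same direction. Of 28 genes, 18 fell (13.9% of all genes), 5 rose (15.0%) and 3 were undecided, with a median of −0.32. Within the bound lay 15 (56.8% of all genes), 13 of them called. CTGF, a matricellular target of both pathways, measured 593 and 715 CPM in mock, 158 and 162 CPM after both treatments, 386 and 386 CPM after TNF and 474 and 398 CPM after Tub B. It fell by 2.03 on the log2 scale (SE 0.08), and the doubly treated libraries overlapped no other group. CYR61, a related target, was called lower within the bound at −0.20. The TEAD core motif GGAATG, the site of YAP's DNA-binding partner, was found on either strand in 3 of the 26 matched windows of this list (11.5%, 26 of 28 members), against 11.9% of all 35116 windows.

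The listed keratins, filament genes of several kinds and not only those of simple epithelia, also fell. Some fibroblast lines express such genes. Of 8 tested genes of 9, 7 fell (13.9% of all genes), 1 of them (KRT34) within the bound, and 1 was undecided. The median was −1.29. KRT34 left the bound without mock replicate 1, and its call was lost without mock replicate 2 or either doubly treated library. KRT18 measured 15.1 and 20.0 CPM in mock and 1.68 and 2.43 CPM after both treatments, with 3.83 and 2.87 CPM after TNF and 6.21 and 3.90 CPM after Tub B. Of 6 epithelial markers, 5 were under 1 CPM in every library, and the summed level, nearly all KRT19, was 139 to 158 CPM in mock and 53.3 to 54.7 CPM after both treatments. The call of KRT8, the partner of KRT18, was lost without doubly treated replicate 1 (edgeR adjusted p = 0.109).

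Beyond the lists, the largest falls included genes of receptors and surface proteins. OXTR, the oxytocin receptor, measured 368 and 510 CPM in mock, 42.8 and 48.6 CPM after both treatments, 178 and 185 CPM after TNF and 232 and 188 CPM after Tub B. CEMIP, a hyaluronan-degrading protein, fell from 774 and 1234 CPM to 97.3 and 125 CPM, with 540 and 580 CPM after TNF. Both had their lowest values in the doubly treated libraries, with changes of −3.26 ± 0.13 and −3.18 ± 0.17. ADRA1D, an adrenergic receptor, fell by 3.12 on the log2 scale. SLC14A1, a urea transporter, fell from 10.2 and 10.0 CPM to 0.98 and 1.04 CPM and stood at 1.32 and 1.22 CPM after TNF. CDH6, a cadherin, fell by 2.80 on the log2 scale.

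PTGS2, which encodes the inducible prostaglandin synthase, was another inflammatory gene below mock. It measured 50.4 and 59.3 CPM in mock, 35.0 and 41.9 CPM after both treatments, 66.1 and 75.0 CPM after TNF and 40.4 and 35.4 CPM after Tub B. The doubly treated libraries lay below mock and overlapped the Tub B libraries, with a change of −0.51 ± 0.10 (edgeR adjusted p = 0.000491).

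**Figure D5:**
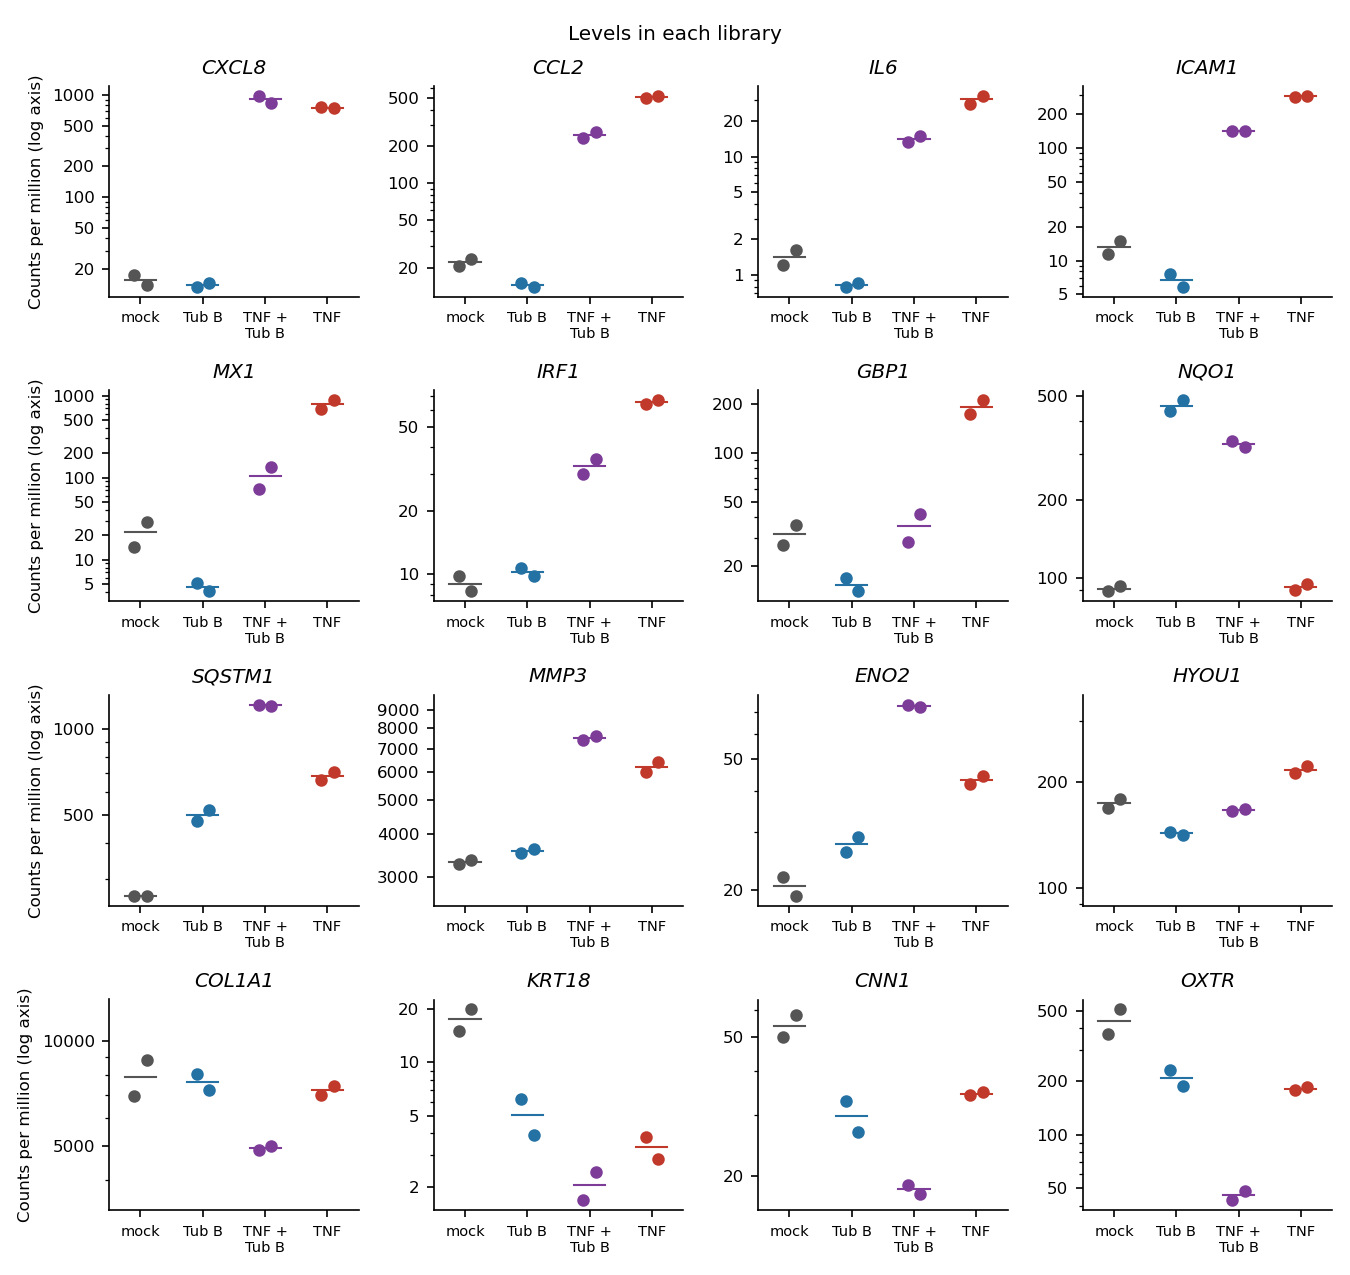
CPM of 16 genes in each library on log axes that differ between panels, with 1 dot per library and a bar at the mean of the 2 libraries of each group. CXCL8 and MMP3 are highest after TNF + Tub B, MX1 and CCL2 lie between mock and TNF, HYOU1 is near mock, and CNN1, OXTR and KRT18 are lowest after TNF + Tub B.

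DNA replication genes were modestly higher in the doubly treated libraries. Of 43 genes, 33 rose (15.0% of all genes) and 2 were undecided, with a median of 0.41. Within the bound lay 19 (56.8% of all genes), 11 of them called higher. For TNF 15 were higher (17.2% of all genes), and for Tub B 13 were lower (7.91%). CCNE2, a cyclin of the entry into S phase, measured 4.09 and 3.44 CPM in mock and 8.32 and 8.87 CPM after both treatments. RRM2, a subunit of the enzyme that makes deoxynucleotides, rose from 207 and 175 CPM to 395 and 346 CPM. The mock libraries differed in this list, with a median log2 CPM of 4.66 and 4.27, against 5.19 and 4.94 after both treatments. Without mock replicate 1 the list median was 0.57 and 10 genes lay within the bound, without mock replicate 2 the median was 0.29, and without doubly treated replicate 1 only 19 genes were called higher.

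Mitosis genes did not follow them in number. Of 44 genes, 15 rose (15.0% of all genes), 7 fell (13.9%) and 37 lay within the bound (56.8%), 17 of them called. The median was 0.12. For TNF alone 23 were higher (17.2% of all genes) and none lower, with a median of 0.21. For Tub B alone 27 were lower (7.91% of all genes) and none higher, with a median of −0.32. CDC20, an activator of the anaphase-promoting complex, fell from 125 and 105 CPM to 76.2 and 80.0 CPM, and measured 119 and 110 CPM after TNF and 73.9 and 69.8 CPM after Tub B. The counts were unstable: 8 rose without mock replicate 2, 8 without doubly treated replicate 1, 6 without doubly treated replicate 2 and 9 in a fit of the 4 libraries alone, and 4 fell without mock replicate 1 or doubly treated replicate 1.

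Of 31 tested cell death genes of 33, 17 lay within the bound (56.8% of all genes), 8 of them called. The list leaned upwards, with 18 higher (15.0% of all genes) and 1 lower (13.9%), at a median of 0.25. Those higher included the BH3 protein gene PMAIP1 (0.90) and the inflammatory caspase genes CASP4 (0.90) and CASP1 (0.82). The call of CASP1 was lost without mock replicate 1 (edgeR adjusted p = 0.0977) and without doubly treated replicate 2 (0.166). Housekeeping lists stayed close to mock. Of 40 nuclear respiratory chain genes 38 lay within the bound, as did all 13 mitochondrially encoded genes and all 40 cytosolic ribosomal protein genes. Among the ribosomal protein genes 19 were called lower at a median of −0.12 and with library totals as the scaling 5 were. The count was also 12 without mock replicate 1, 11 without doubly treated replicate 1 and 6 without doubly treated replicate 2.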

How the data were processed

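RNA from MH7A cells was measured by poly(A)-selected sequencing with a kit that does not keep strand, so antisense and overlapping genes cannot be separated. The values are raw read counts per gene symbol as deposited by the authors. The submitters' processing notes name STAR 2.7.0 and featureCounts, and list both a mouse and a human genome build with no role given. Human symbols were used as they stand. No column went unassigned. All 8 libraries, 2 in each of 4 groups, were fitted with edgeR 4.0.16 in R 4.3.3 (filterByExpr, TMM scaling, quasi-likelihood test, 1 coefficient per group), with p-values adjusted by Benjamini-Hochberg over 16647 genes. The fit had 4 residual degrees of freedom and a biological coefficient of variation of 4%. CPM values are TMM-scaled. Errors are SE of the log2 fold change, and each group has n = 2. The 95% interval of each log2 fold change was set against a bound of 1.5-fold. Differences between libraries and principal components used log2 CPM with a prior count of 2. The scripts were tested on simulated data.

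Members and gene lists were chosen with earlier results of these data known. Named genes are a fixed panel, the 12 largest changes per direction whose groups do not overlap and whose higher mean is 5 CPM or more, and up to 4 called and 3 mock-level members of each list. The mock-level members were those with the highest level after TNF relative to mock. Further mock-level genes, from all tested genes, were those that TNF alone changed most in each direction. Their contrast with TNF was therefore fixed by the choice. A few list members outside that rule are named to complete counts of 5 or fewer, or as exceptions, and were chosen after their values were seen. Members passing the filter partly did so through the group where they are high. DESeq2 1.42.0, limma-voom 3.58.1, other scalings and filters, a replicate block and each left-out library were alternatives. Counting intervals and floors cover counting error only. An item withheld from this work is not reported here.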

Additional observations from a re-analysis of the deposited data

How the results depend on the processing

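Of the counts over all genes, those of TNF + Tub B against mock stayed within 1.5 times the main value under every scaling, filter, tool and left-out library that was run. A minimum change of 2-fold left 826 called genes of 4813, and the tighter of the other bounds tried left 5261 genes at the mock level of 9459, both by construction of a stricter rule. For Tub B against mock, DESeq2 called 1345 genes where edgeR called 2120, and the cause was not tested. DESeq2 called 3473 genes for TNF + Tub B against mock and limma-voom 4739. Leaving out 1 of the 4 libraries gave 3444 to 4327 called genes, 1732 to 2258 higher, 1712 to 2069 lower and 8499 to 9257 at the mock level. Scaling moved the median of all genes by at most 0.04 on the log2 scale. Of the 281 named genes, DESeq2 lost the call of 22, and none changed direction while called under any setting. With the replicate number as a block 5076 genes were called, but the numbers did not pair the samples: the correlation of same-numbered deviations was 0.02 between mock and TNF + Tub B and −0.05 to 0.05 over all pairs of groups. With 2 libraries a group, genes near 1 CPM stayed mostly undecided.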

Other observations

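Several gene groups not described above were divided against mock. Among 28 tested AP-1 and MAP kinase feedback genes, 10 were called higher and 12 lower for TNF + Tub B against mock, with 10 within 1.5-fold of mock and a median log2 fold change of −0.10. Growth factor and growth factor receptor genes were also split, with 14 of 38 higher and 13 lower. WNT and Notch genes leaned down, with 16 of 31 lower and 2 higher at a median of −0.32, and adhesion genes had 14 of 29 lower and 4 higher. Over all genes 15.0% were called higher, 13.9% were called lower and 56.8% lay within the bound. HAS2, which makes the hyaluronan of synovial fluid, rose from 37.4 and 31.4 CPM in mock to 81.9 and 70.2 CPM after both treatments, between mock and the 131 and 127 CPM of TNF alone, although Tub B alone gave 10.9 and 11.2 CPM.

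Heat shock and sterol synthesis genes lay mostly within the bound, 15 of 20 and 23 of 29, against 56.8% of all genes. Of the heat shock genes 5 were called higher and 5 lower, and of the sterol genes 9 higher and 6 lower. Genes of the ATF4 stress response had 22 of 30 within the bound, with 10 called higher and 7 lower. Genes answering p53 had 21 of 26 within it, with 13 higher and 3 lower. The shares called over all genes were 15.0% higher and 13.9% lower. HSPB1 (−0.94) and STC2 (1.21) were among those outside the bound. Fewer ATF4 genes were called lower without doubly treated replicate 1. Of 18 circadian clock genes 10 lay within the bound, 4 were called higher and 4 were undecided. EHF, an ETS factor usually found in epithelia, had 10 and 4 counts in mock and 91 and 80 after both treatments. Among the remaining lists, 9 of 21 other glutathione and peroxide enzymes were lower and 2 higher, with 16 within the bound, and 5 were higher with library totals as the scaling and 1 without mock replicate 2 or either doubly treated library. Of 22 synovial fibroblast identity genes 9 were lower and 5 higher, or 3 higher without doubly treated replicate 2, and of 13 prostaglandin genes 5 were higher and 2 lower, or 1 lower without doubly treated replicate 1. Complement genes had 6 of 16 higher, 3 higher without doubly treated replicate 2, and 8 within the bound, 5 without doubly treated replicate 1.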
